A study of Mus musculus with 5 samples.

Results

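Glomerular endothelial cells were examined in single-cell RNA profiles of mouse kidneys after unilateral ureteric obstruction (UUO), a reversible model that stops urine flow from 1 kidney until the ureter is reopened. A cell was taken as glomerular endothelium if Emcn, Kdr, Flt1 and Egfl7, which mark endothelium in general, together had at least 3 unique molecular identifiers (UMIs, each counting 1 captured RNA molecule), Ehd3 had at least 1, and Plvap and Ptprc had 0. Plvap encodes the diaphragm protein of fenestrated capillaries outside the mature glomerulus, and Ptprc encodes the leukocyte antigen CD45. This gate held 383 cells, out of 1289 endothelial cells and 13823 cells that passed a floor of 200 detected genes and a ceiling of 50% mitochondrial UMIs. The members were thus chosen by the UMI counts of these 7 genes, whose own levels are described and not tested. There were 4 droplet libraries from kidneys of C57/BL6 mice aged 8 weeks, each pooled from 3 mice: sham surgery (day 0), day 2 and day 7 of obstruction, and reversed obstruction, collected 7 days after release on day 14. Live cells had been sorted with a viability dye, so a share of cells is a share of what survived digestion and sorting. Each condition was 1 library, so no test between conditions was possible, and all intervals on such differences cover counting error only.

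Glomerular capillaries filter the blood. Their endothelium is flat, densely perforated by open fenestrae, and lies on a basement membrane shared with the podocytes, which supply it with vascular endothelial growth factor (VEGF). Peritubular capillaries surround the tubules, where they take up reabsorbed fluid and carry fenestrae closed by Plvap diaphragms. In both beds flow-sensing factors such as Klf2 and Klf4, and the bone morphogenetic protein (BMP) pathway through the co-receptor endoglin (Eng) and the inhibitor Smad6, are known to hold the endothelium in a resting state.

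The promoters of 4 genes that the comparisons below turn on are shown for context. Nostrin, an adaptor that binds endothelial nitric oxide synthase, and Smad6 set the gate apart from Plvap+ cells, and Smad6, Eng and Klf4 were lower in obstructed kidneys than in sham. Each line gives the 250 bases before the annotated start, read on the gene's strand from 5′ to 3′, from RefSeq for build GRCm38.p6. The windows lie at chr2:69135550-69135799 (+ strand, Nostrin), chr9:64022060-64022309 (− strand, Smad6), chr2:32646345-32646594 (+ strand, Eng) and chr4:55532476-55532725 (− strand, Klf4), upstream of the first exon. Capitals mark matches to any of 4 motifs of 6 letters, searched on both strands: GGCGCC (SMAD), CCGGAA (ETS), AGGTGT (T-box) and CCACCC (KLF).
Nostrin: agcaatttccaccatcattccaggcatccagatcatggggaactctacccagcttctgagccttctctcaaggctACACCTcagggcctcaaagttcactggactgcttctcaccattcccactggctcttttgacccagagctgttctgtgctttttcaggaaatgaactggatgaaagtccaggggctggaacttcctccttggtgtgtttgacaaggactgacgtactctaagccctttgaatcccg
Smad6: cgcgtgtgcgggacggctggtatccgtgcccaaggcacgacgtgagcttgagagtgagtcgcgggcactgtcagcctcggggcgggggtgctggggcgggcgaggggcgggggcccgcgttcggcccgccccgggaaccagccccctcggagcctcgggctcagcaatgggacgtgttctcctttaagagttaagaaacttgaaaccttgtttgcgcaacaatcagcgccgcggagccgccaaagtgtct
Eng: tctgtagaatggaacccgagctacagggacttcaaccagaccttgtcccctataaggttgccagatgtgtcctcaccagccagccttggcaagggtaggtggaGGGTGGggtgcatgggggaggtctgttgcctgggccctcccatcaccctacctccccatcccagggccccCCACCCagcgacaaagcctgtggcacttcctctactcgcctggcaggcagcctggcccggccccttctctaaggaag
Klf4: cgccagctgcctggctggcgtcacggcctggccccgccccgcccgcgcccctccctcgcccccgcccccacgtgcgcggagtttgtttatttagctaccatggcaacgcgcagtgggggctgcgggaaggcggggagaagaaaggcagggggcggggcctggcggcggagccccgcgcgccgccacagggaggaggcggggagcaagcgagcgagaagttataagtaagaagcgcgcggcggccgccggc
The Nostrin window held 1 T-box match, the Eng window held 2 KLF matches, and the Smad6 and Klf4 windows held none of the 4. Over all 32851 promoters of that table (27025 genes), the SMAD letters occurred in 9.59%, the ETS letters in 12.0%, the T-box letters in 11.8% and the KLF letters in 28.1%. Among the 15 genes most above the Plvap+ level named below, 10 genes had 12 promoters in the table, of which 2 held the SMAD, 1 the ETS, 3 the T-box and 8 (66.7%) the KLF letters. Among the 15 genes most above in the Plvap+ direction, 10 genes had 13 promoters, of which 3 held the SMAD, 0 the ETS, 0 the T-box and 8 (61.5%) the KLF letters. A match describes the letters in the window and is not a binding site. Of the genes that name the gate, Ehd3 and Pi16 had a promoter in the table and are not printed; Plat and Tbx3 are named only.

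The gate took 102 sham, 51 day 2, 129 day 7 and 101 reversed cells. As a share of endothelial cells this was 43.6% of sham (Clopper-Pearson 95% limits 37.1 and 50.2), 30.7% of day 2 (23.8 and 38.3), 26.4% of day 7 (22.6 and 30.6) and 25.2% of reversed cells (21.0 and 29.7). The sham share was the highest, above the limits of day 7 and reversed cells and overlapping those of day 2, and the later 3 overlap each other. As a share of all kept cells it was 2.59%, 2.31%, 2.90% and 3.12%, with sham among the lower values. The order over all kept cells depended on the mitochondrial limit, since at most 20% in place of 50% gave 14.7%, 3.23%, 3.01% and 4.49%. Depth also differed between libraries: gated cells had a median of 2542 UMIs in sham and 3638, 3455 and 3709 in the later libraries. With cells thinned to 2000 UMIs before gating, the shares of endothelial cells were 50.6%, 32.5%, 30.3% and 28.9%, in the same order. Sham cells with fewer UMIs were left out of this, which kept 2735 of 3933 sham cells and all cells of the other libraries, so the sham share is over its deeper cells. The remaining endothelial cells were 442 with Plvap and no Ehd3, called Plvap+ cells below, 312 with both, and 152 with neither. The Plvap+ gate was set to hold peritubular capillaries, but is named here by its rule. By the test described below, of 6 tested genes known from peritubular capillaries other than Plvap, 0 were higher in it than in the glomerular gate (5.1% over all genes) and Cd300lg was higher in the glomerular gate (4.19%), which is too few genes to read for or against the name; the median log2 fold change of the list was −0.67. Of 12 arterial genes 4 were higher in the Plvap+ gate (5.1% over all genes), Eln, Fbln2, Ltbp4 and Sox17. The arterial genes summed to 2690, 5048, 2448 and 3253 CPM (a scale defined below) in Plvap+ cells and to 1117, 1363, 1815 and 1638 CPM in the glomerular gate, where 31.5% of the day 7 and 20.4% of the reversed sum came from 1 cell. The 6 peritubular genes summed to 4482, 2969, 3766 and 2584 CPM in Plvap+ cells. In the glomerular gate they summed to 3827, 3842, 3832 and 3390 CPM, so this sum was higher in Plvap+ cells in sham only. Igfbp5 made up much of it, with 1742 to 2717 CPM in the glomerular gate and 353 to 1798 CPM in Plvap+ cells. Which vessels the Plvap+ cells came from was not tested.

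Facts of the whole series that bear on these values were as follows. Kept cells had at least 1097 UMIs in sham and at least 2164 to 2299 in the other 3 libraries, so the files carry a different lower limit for sham. Between 16 and 39 cell barcodes were shared by each pair of libraries, and 0 of them were in the gate. No doublets were removed in the main analysis, and the highest Scrublet doublet scores would take 9, 4, 11 and 7 gated cells. The summed UMIs of the gate were 293702 in sham, 242845 on day 2, 606716 on day 7 and 549515 in reversed cells, so that 1 UMI equals 3.40, 4.12, 1.65 and 1.82 CPM (UMIs scaled to the same total in every sum), the unit of all levels below. A level is a gene's share of the UMIs of the gate, not a count of RNA per cell.

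Among the rule's own genes, Ehd3, a membrane-trafficking ATPase, stood at 3418, 2751, 2161 and 2229 CPM in sham, day 2, day 7 and reversed cells. Emcn, an endothelial sialomucin, stood at 4215, 3418, 2799 and 2648 CPM, and the VEGF receptor Kdr at 1304, 964, 1455 and 1281 CPM. A gated cell had a median of 10 Ehd3 UMIs (highest 41) and a median sum of 25 UMIs over the 4 endothelial genes (3 to 147). At the edge of the rule, 44 cells (11.5%) had exactly 1 Ehd3 UMI, and 10 cells had an endothelial sum of exactly 3.

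The cell type was checked against Plat, Pi16 and Tbx3, which the rule did not use. Plat encodes tissue plasminogen activator, Pi16 a secreted peptidase inhibitor, and Tbx3 a T-box transcription factor. Of the 383 cells, 210 had a UMI of all 3 genes, 138 of 2, 27 of 1 and 8 of none. In all, 97.9% had at least 1 and at least 97.0% in each library, so the data did not go against the label. Cells just inside the rule held them less often, 86.4% of the 44 cells with 1 Ehd3 UMI and 70.0% of the 10 cells with a sum of 3, against 99.4% of the 339 cells with 2 or more Ehd3 UMIs. Just outside, they were found in 91.2% of the 57 cells with Ehd3 and exactly 1 Plvap UMI, and in 62.7% of the 255 cells with Ehd3 and 2 or more. Of the 152 endothelial cells with neither gene, 73.7% held a marker, so cells with these markers also lay outside the gate.

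Plat stood at 3350.3, 3793, 3031 and 2329 CPM in sham, day 2, day 7 and reversed gated cells, and at 333, 346, 168 and 138 CPM in Plvap+ cells. Pi16 stood at 1920.3, 914, 438 and 566 CPM in the gate, against 339.6, 161, 65.4 and 132 CPM in Plvap+ cells. Tbx3 stood at 361, 259, 414 and 297 CPM, against 59.9, 38.4, 22.5 and 35.5 CPM. Every glomerular value was above every Plvap+ value for Plat, Pi16 and Tbx3. Proximal tubule cells, which should lack the 3 genes, had 6.74 to 21.9 CPM of Plat, 3.21 to 8.29 CPM of Pi16 and at most 1.21 CPM of Tbx3. That gate took only cells with no UMI of the 4 endothelial genes or Ptprc, so its levels, here and below, can understate free endothelial and leukocyte RNA. The plot of CPM by library shows these levels for 8 genes.

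Which genes beyond the rule set glomerular from Plvap+ endothelium was tested on UMIs summed per gate and library, with the library as a block and the 7 rule genes removed. The edgeR quasi-likelihood test over 6152 genes placed 258 genes (4.19%) higher in the glomerular gate and 314 (5.1%) higher in the Plvap+ gate, together 9.3%, at a Benjamini-Hochberg adjusted p under 0.05. Without scaling factors the split was 338 and 256, and with DESeq2 142 and 173. The median log2 fold change over all genes was 0.01. The 4 pairs of sums come from 4 conditions, so the test asks for a difference that holds across them. The gates were set by Ehd3 and Plvap in the same cells, and genes that go with these were more likely to differ.

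Plat, Tbx3 and Pi16, all 3 tested genes of the marker list, were higher in the glomerular gate. Plat had a log2 fold change of 3.71 ± 0.16 (SE, n = 4 pairs, adjusted p = 3.7e-08), a 13.1-fold difference. Tbx3 reached 3.24 ± 0.24 (adjusted p = 2.9e-06) and Pi16 2.37 ± 0.14 (adjusted p = 2e-07). For Pi16 the library block mattered, since the adjusted p was 0.13 without it; its level varied between libraries in both gates. The list was chosen with results of these data known and is not independent evidence. Tbx3os1, a transcript antisense to the Tbx3 region on chromosome 5, was higher by 4.5 ± 0.43 (adjusted p = 7.6e-06), at 47.7 to 74.1 CPM in the gate. Its annotated span, 119570130 to 119671365 in GRCm38, overlaps the start of Tbx3, whose span begins at 119670669, and how reads there were assigned is not stated.

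Of 7 other tested genes known from glomerular capillaries, 6 were higher in the gate (4.19% over all genes) and 0 lower, with a median log2 fold change of 3.05. Gata5, a zinc-finger transcription factor, stood at 167, 82.4, 85.7 and 67.3 CPM in the gate, and at 6.66 CPM in sham Plvap+ cells with 0 UMIs in the other 3 Plvap+ sums. Its fitted log2 fold change of 6.81 ± 0.52 (adjusted p = 1e-06) depends on how zeros are handled and is not a bound. Nostrin stood at 330.3, 239, 249 and 273 CPM, against 20.4 to 42.1 CPM in Plvap+ cells, with a log2 fold change of 3.05 ± 0.19 (adjusted p = 2.8e-07). Mapt, the microtubule-binding protein tau, and Sema5a, a guidance cue of the semaphorin family, followed with 3.59 ± 0.26 and 3.07 ± 0.35. The VEGF co-receptor Nrp1 was among the most abundant, at 2526, 2289.5, 2026 and 1993 CPM against 286 to 879 CPM in Plvap+ cells (2.13 ± 0.21, adjusted p = 0.00029). Lpl, lipoprotein lipase, did not pass the test, with 2.7 ± 0.81 and an adjusted p of 0.2. Proximal tubule cells themselves held 67.3 to 250 CPM of Lpl, and the part of free RNA in its levels was not tested.

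By the rule that names the largest differences, the further glomerular genes were Gimap3, P2ry1, Tiam1, Meg3, Cyp4b1, Hmha1, Ddit4l and Casc4. P2ry1, a receptor for extracellular ADP, stood at 211, 65.9, 59.3 and 89.2 CPM against 2.04 to 17.5 CPM (3.84 ± 0.39, adjusted p = 1.5e-05). Gimap3, a GTPase of the immunity-associated family, stood at 249, 185, 140.1 and 72.8 CPM (4.07 ± 0.31, adjusted p = 1.1e-06). Tiam1 activates the small GTPase Rac, and differed by 3.44 ± 0.41. These genes were low in every Plvap+ sum. Cyp4b1, a cytochrome P450, was less certain: proximal tubule cells held 246 to 1021 CPM of it, and its adjusted p rose from 0.026 to 0.055 without day 2, 0.14 without day 7 and 0.12 without the reversed library. Meg3, a long noncoding RNA, ranged in the gate from 45.3 to 674 CPM, and its adjusted p went from 0.03 to 0.21 without the day 2 library and to 0.31 without the library block.

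In the Plvap+ direction, Rgcc, a regulator of the cell cycle and complement response, stood at 613 to 779 CPM in Plvap+ cells and at 0, 0, 8.24 and 14.6 CPM in the gate (−6.53 ± 0.35, adjusted p = 3e-06). The apelin receptor Aplnr was next (−4.93 ± 0.35), at 0, 0, 14.8 and 3.64 CPM in the gate. The Iroquois homeobox factors Irx3 and Irx5 were near the level of a few UMIs in the gate, at most 14.6 and 4.94 CPM, with log2 fold changes of −4.75 ± 0.30 and −4.06 ± 0.35. The growth factor Igf1, the alarmin Il33 and the gap junction protein Gja1 were also higher in Plvap+ cells, with log2 fold changes of −3.20, −3.30 and −2.85. Igf1, Il33 and Gja1 were at most 25.5 CPM in any glomerular sum. Igfbp3, an insulin-like growth factor binding protein, stood at 725 to 1509 CPM in Plvap+ cells and 13.6 to 209 CPM in the gate, but did not pass the test (adjusted p = 0.066).

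**Figure D1:**
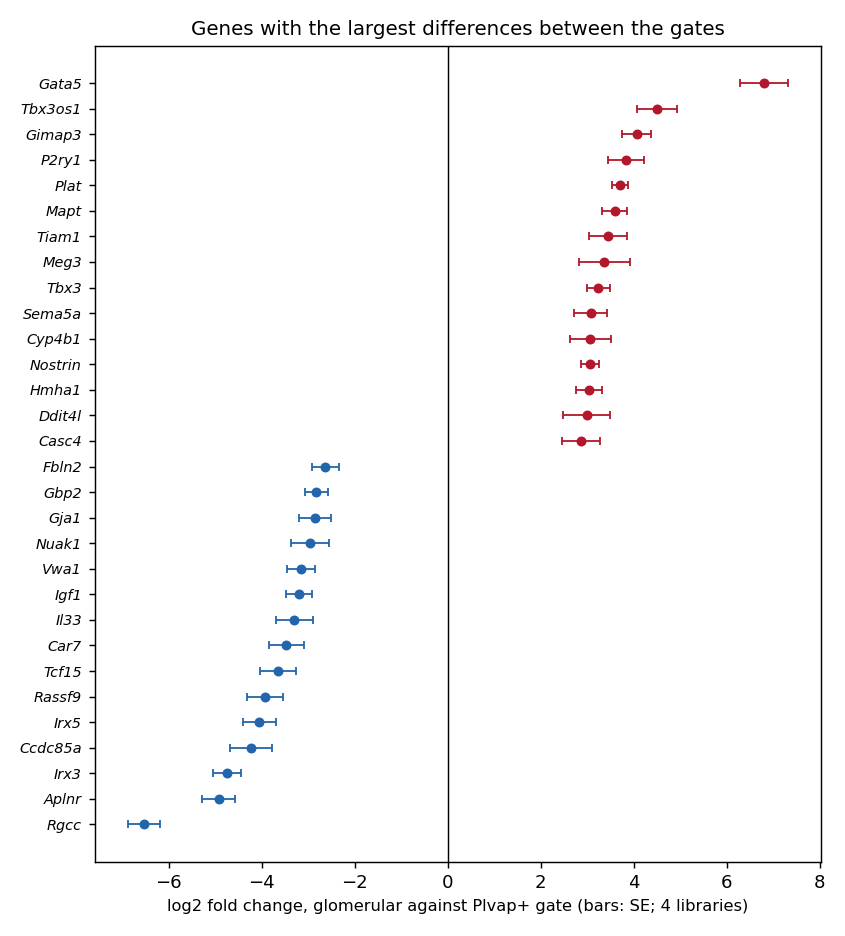
Log2 fold change (glomerular over Plvap+ gate) with its standard error for the 15 genes most above in each direction, from the fit over 4 libraries. Gata5 (6.81) and Rgcc (−6.53) lie at the ends, and both rest on sums of 0 UMIs in some libraries.

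The list counts that follow are set against 4.19% of all genes higher in the glomerular gate and 5.1% higher in the Plvap+ gate. Among the receptors and ligands of the VEGF and angiopoietin list, of 7 tested, Nrp1 was higher in the gate while Nrp2 and Tie1 were higher in Plvap+ cells. Among 10 caveolar and EHD genes, Nostrin, Sdpr and Cav2 were higher in the gate, and Ehd2, Ehd4, Ptrf and Prkcdbp in Plvap+ cells. Sdpr, a cavin that shapes caveolae, stood at 1052, 675, 377 and 415 CPM in the gate against 286, 161, 118 and 213 CPM (1.53 ± 0.16, adjusted p = 2.5e-05). Of the tested relatives of the rule gene Ehd3, Ehd1 did not pass (−0.80, adjusted p = 0.072). Ehd4 stood at 375, 346, 290.1 and 315 CPM in the gate against 892, 1041, 708 and 748 CPM (−1.42 ± 0.13, adjusted p = 3.8e-06), and Ehd2 differed by −1.10 ± 0.18 (adjusted p = 0.0011). Of 16 genes of vascular tone and coagulation, 3 were higher in the gate, Plat, the thrombin receptor F2r (0.81) and the coagulation inhibitor Tfpi. The 4 higher in Plvap+ cells were thrombomodulin (Thbd, −1.15), the protein C receptor (Procr, −1.57), endothelial nitric oxide synthase (Nos3, −1.35) and the ectonucleotidase Entpd1 (−1.70).

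Of 25 tested genes of the interferon response and antigen presentation, 0 were higher in the glomerular gate and 22 were lower than in Plvap+ cells, against 5.1% over all genes, with a median log2 fold change of −0.84. Irf7, an interferon-induced transcription factor, stood at 47.7, 41.2, 82.4 and 83.7 CPM in the gate and at 217 to 329 CPM in Plvap+ cells (−2.01 ± 0.19, adjusted p = 7.6e-06). The membrane protein Ifitm3, which blocks virus entry, stood at 1668, 2322, 2011 and 1581 CPM against 2986 to 3909 CPM (−0.90 ± 0.10, adjusted p = 2.5e-05). The ubiquitin-like Isg15 differed by −1.83 ± 0.25, and the class I heavy chain H2-K1 by −0.84 ± 0.14. The lower level in the gate was thus present in each library for Irf7, Ifitm3, Isg15 and H2-K1, sham included. The class II genes of the list, H2-Aa, H2-Ab1, H2-Eb1 and Cd74, lost their call with doublets left out (adjusted p of 0.28, 0.065, 0.31 and 0.17).

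Smaller shares of the other lists passed, to be set against the same 4.19% and 5.1%. Of 14 BMP and transforming growth factor genes, Smad6 (2.24 ± 0.17, adjusted p = 1.2e-06) and Id3, a BMP target, were higher in the gate and Smad1 was lower. Of 7 Notch genes, the ligand Dll4 (1.05) and the target Hes1 were higher. Of 26 transcription factors, 5 were higher, Tbx3, Gata5, Prdm1 (1.79), Meis2 and Fli1, and 4 were lower, Irx3, Sox17 (−1.23), Lmo2 (−1.19) and Klf4 (−0.95). Of 14 adhesion genes, the chemokine Cx3cl1 was higher in the gate (2.52 ± 0.19, adjusted p = 1e-06) and Vcam1 and Jam2 were lower. Of 18 basement membrane genes, Col4a3 was higher (1.75) and Col4a1 (−0.63), Col4a2 (−0.54) and Lamb2 were lower. Col4a3 stood at 61.3, 132, 39.6 and 43.7 CPM in the gate and at 65.5, 42.1, 60.8 and 89.5 CPM in proximal tubule cells. The podocyte genes summed to 1233, 2532, 377 and 548 CPM in the gate, the same order of libraries as Col4a3 there. The part of free RNA or of podocyte RNA in Col4a3 was not tested. Of 12 broad endothelial genes, 0 were higher in the gate and 3 were lower, Ecscr (−0.83), Tie1 (−0.78) and Robo4 (−0.59, adjusted p = 0.046, and 0.39 with DESeq2), with a median of −0.30. Pecam1 and Cdh5 did not pass the test, with −0.21 ± 0.12 and −0.04 ± 0.19. Of 20 tip cell and injury genes, 3 were higher in the gate, Spry4 (2.47), Plaur (1.53) and Dll4, and 5 were lower, Aplnr, Trp53i11 (−2.53), Thbs1 (−1.73), Lrg1 (−1.42) and Hif1a (−1.19). Of 18 immediate-early genes, 0 were higher and 6 lower, Fosb (−1.67), Ier2, Ier3, Jun, Junb and Jund. Of 10 lipid-handling genes, 0 were higher and Abcg1, Apoe and Slc6a6 lower. Of the lists of other cell types, 0 of 5 podocyte and 0 of 7 leukocyte genes passed the test, 1 of 3 mural genes was higher in Plvap+ cells, and 2 of 10 proximal tubule genes were higher in the gate. Several of the smaller differences lost their call with DESeq2: Cav2 (adjusted p = 0.19), Tfpi (0.25), Hes1 (0.13), Id3 (0.1), Meis2 (0.12), Fli1 (0.29), Col4a1 (0.086), Col4a2 (0.18) and Lamb2 (0.36). Others lost their call in the edgeR fit without a library. The adjusted p for Vcam1 was 0.075 without sham and 0.13 without day 7, and that for Smad1 was 0.055 without day 7. For Entpd1 it was 0.071 without day 2 and 0.07 without the reversed library. For Nos3 it was 0.082 and for Col4a3 0.06 without the reversed library, and for Col4a3 0.11 with at most 20% mitochondrial UMIs. Sox17 reached 0.15 with at least 2 Ehd3 UMIs, and Dll4 0.085 when thinned. Without the library block it was 0.12 for Nrp2, 0.085 for Tie1, 0.053 for Ptrf, 0.15 for Prkcdbp, 0.25 for Klf4 and 0.15 for Sox17.

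The next question was how the gated cells differ between sham, obstructed and reversed kidneys. A gene was counted as different if its CPM, with 10 CPM added, differed at least 2-fold between libraries, with at least 20 UMIs over both and 50 CPM in the higher. From sham to day 2, 175 of 4021 genes were higher (4.35%) and 159 lower (3.95%). On day 7 against sham, 242 of 4148 were higher (5.83%) and 201 lower (4.85%), and in reversed cells against sham 280 of 4171 were higher (6.71%) and 158 lower (3.79%). Reversed against day 7, 98 of 4026 were higher (2.43%) and 77 lower (1.91%). The comparisons against sham share the sham cells. With 1 library each, they describe the libraries. Each was repeated without the cells that had at least 3 UMIs over 15 podocyte, mural and fibroblast genes, called below cells with other types' RNA, of which there were 1, 7, 9 and 11, a split chosen after the data were seen. Without them 93 genes were higher on day 2 in place of 175, and the other counts stayed within 1.5 times. Without each gene's top cell 61 genes were higher in reversed cells than on day 7, in place of 98. With no filter on low values 739 were higher and 647 lower on day 2, so the shares over all genes hold for this filter.

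Of the 3 markers, Pi16 alone was at least 2-fold lower than in sham, in all 3 later libraries. Pi16 was 2.10-fold lower on day 2 (1.80 to 2.46), 4.38-fold lower on day 7 (3.78 to 5.09) and 3.39-fold lower in reversed cells (2.95 to 3.91). With each cell thinned to 1000 UMIs, 81.4% of sham cells had a Pi16 UMI, against 52.9%, 34.1% and 48.5% in the later libraries. Unthinned shares were higher. Among gated cells with an endothelial sum over 3, 95 of 101 sham and 42 of 50 day 2 cells then had a Pi16 UMI. On day 7 these were 86 of 126, and in reversed cells 80 of 96. Plvap+ cells had the same order, with Pi16 2.11-, 5.19- and 2.58-fold lower than in sham. Plat was 1.13-fold higher on day 2, 1.11-fold lower on day 7 and 1.44-fold lower in reversed cells, and Tbx3 was 1.39-fold lower, 1.15-fold higher and 1.22-fold lower. Pi16 thus passed 2-fold in each comparison with sham, and Plat and Tbx3 in none. Without cells with other types' RNA the Pi16 log2 ratios were −0.80, −2.02 and −1.39 in place of −1.06, −2.11 and −1.74, under 2-fold on day 2. Of the 8 other genes known from glomerular capillaries, 2 were lower than in sham on day 2 (3.95% over all genes), 3 on day 7 (4.85%) and 4 in reversed cells (3.79%), with 0 higher and medians of −0.30, −0.64 and −0.77. Of these, 2, 2 and 1 stayed past 2-fold without cells with other types' RNA.

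Of 13 tested BMP and transforming growth factor genes, Smad6, Smad7, Eng and Id2 were lower on day 2 than in sham (4 of 13, against 3.95% over all genes), 0 were higher and 9 did not pass 2-fold. The median log2 ratio of the list was −0.46, against 0.01 over all genes. Smad6, which blocks BMP receptor signalling and is itself a BMP target, stood at 528, 165, 193 and 204 CPM. It was 3.20-fold lower on day 2 (2.25 to 4.66), 2.74-fold on day 7 (2.14 to 3.51) and 2.59-fold in reversed cells (2.02 to 3.33), and also lower in Plvap+ cells (2.64-, 3.66- and 3.25-fold). Eng stood at 1335, 634, 636 and 761 CPM, 2.10-fold lower on day 2 (1.74 to 2.55) and on day 7 (1.82 to 2.42). All 3 later libraries were below sham for Smad6 and Eng, and proximal tubule cells held at most 4.14 CPM of Smad6 and 12.5 CPM of Eng. Smad7, the related inhibitor, was 3.09-fold lower on day 2 (1.72 to 5.88) and Id2 2.16-fold (1.58 to 2.99); on day 7 and in reversed cells neither passed 2-fold. Of the list, 3 of 13 were lower on day 7 (4.85% over all genes) and 0 higher. In reversed cells Smad6 was lower (1 of 12, against 3.79%) and Smad1 higher. The medians were −0.53 and −0.59. Without cells with other types' RNA, Smad6 had log2 ratios of −1.59, −1.36 and −0.98, and on day 2 Eng went from −1.06 to −0.88 and Id2 from −1.08 to −0.998, so that Smad6 in reversed cells and Eng and Id2 on day 2 came under 2-fold. Bambi, a decoy receptor and the third gene lower on day 7, came just under it there (−0.97).

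Klf2 and Klf4 respond to blood flow. Klf2 stood at 1975, 1433, 938 and 968 CPM, 1.38-fold lower on day 2, 2.11-fold on day 7 (1.87 to 2.37) and 2.04-fold in reversed cells (1.81 to 2.30). Klf4 stood at 296, 119, 105 and 140.1 CPM and was 2.48-fold lower already on day 2 (1.61 to 3.92), then 2.81-fold (2.01 to 3.94) and 2.11-fold (1.54 to 2.91). Both were below sham in each later library, with proximal tubule cells at no more than 48.4 CPM of Klf2 and 33.2 CPM of Klf4. Gata5 was 2.03-fold lower on day 2 (1.18 to 3.60), 1.95-fold on day 7 (1.29 to 2.93) and 2.48-fold in reversed cells (1.58 to 3.91), and past the 2-fold line with the added CPM only in reversed cells. Sox18 was lower on day 2 alone by that line, at 133, 20.6, 120 and 63.7 CPM. Of the transcription factor list, 3 of 21 were lower on day 2 (3.95% over all genes), 2 of 22 on day 7 (4.85%) and 3 of 20 in reversed cells (3.79%), where Nr2f2, a factor of venous identity, was higher. Without cells with other types' RNA, Klf2 went to log2 ratios of −0.98 on day 7 and −0.62 in reversed cells, in place of −1.07 and −1.02. In reversed cells Klf4 and Gata5 went to −0.88 and −0.87, and Nr2f2 from 1.33 to 0.067, so these 4 came under 2-fold there, and Klf2 on day 7 too.

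Sdpr, named above among the caveolar genes of the gate, was 1.56-, 2.79- and 2.54-fold lower than in sham, and Ly6c1, a surface antigen of endothelium, stood at 2217, 1602, 1022 and 917 CPM. Lpl stood at 661, 881, 300 and 293 CPM, 1.33-fold higher than sham on day 2 and 2.20-fold lower on day 7 (1.79 to 2.71), with proximal tubule cells at 221, 67.3, 250 and 169.5 CPM. Sost, an inhibitor of Wnt and BMP ligands, had 30 UMIs in 13 sham cells, and 1, 8 and 3 UMIs later. Its ratio to day 2 was 24.8 with a counting interval of 4.12 to 1012, and the Plvap+ sums held at most 13.2 CPM. Calca, the calcitonin and CGRP peptide gene, had 123, 29, 1 and 1 UMIs, in 5, 2, 1 and 1 cells with 60 of the sham UMIs in 1 of them. Without cells with other types' RNA, Sdpr, Ly6c1 and Lpl came under 2-fold in reversed cells, with log2 ratios of −0.94, −0.88 and −0.81, and Lpl on day 7 (−0.999). Of the 12 broad endothelial genes, Eng was the 1 lower on day 2 and on day 7, with 0 lower in reversed cells and 0 higher, a share near that over all genes (3.95%, 4.85% and 3.79% lower). Of 8 tested VEGF and angiopoietin genes, 0, 1 and 0 were lower and 0 higher; the 1, Vegfa, went from −1.62 to −0.72 without cells with other types' RNA.

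**Figure D2:**
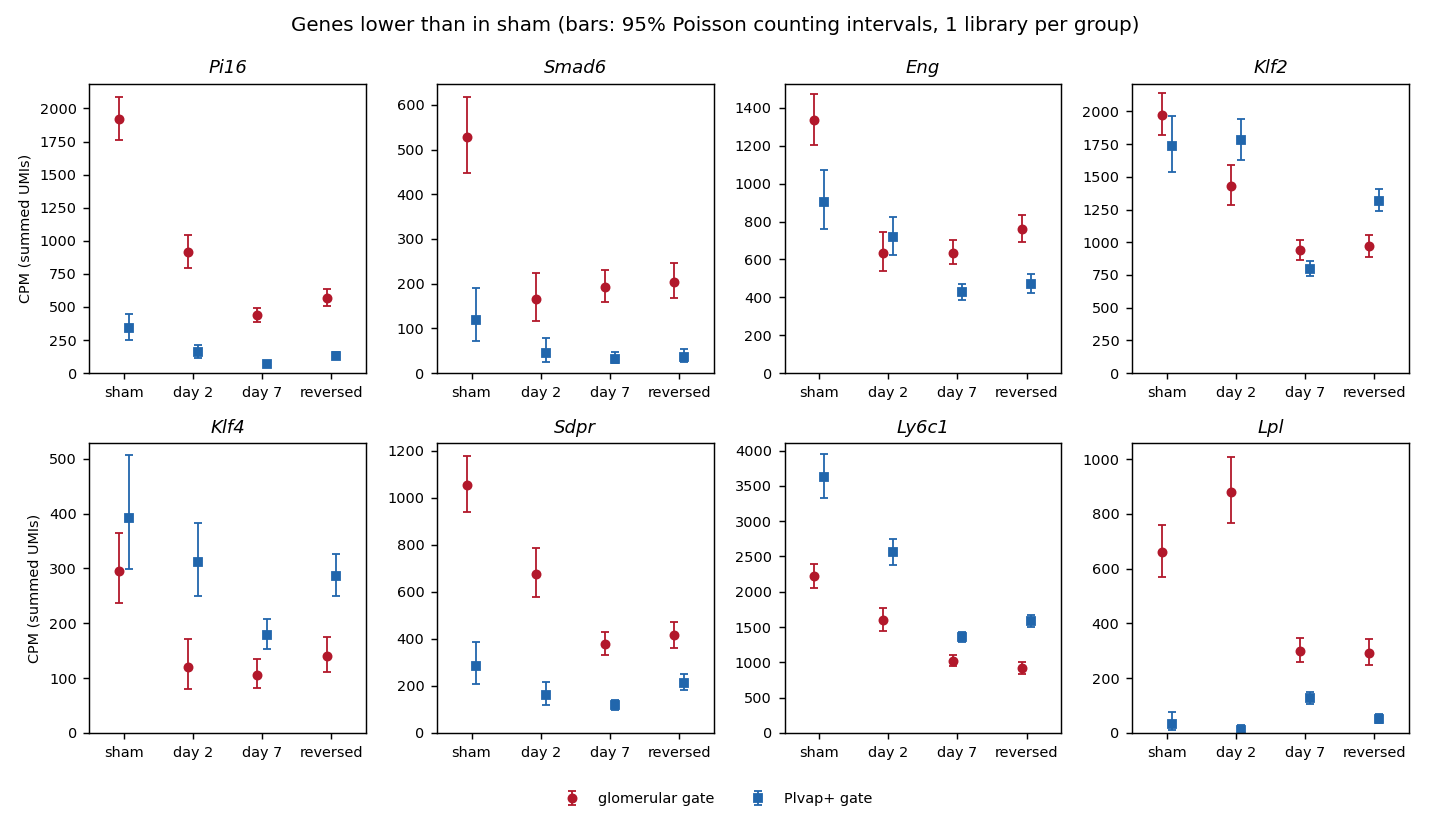
Level (CPM, linear axis, 95% Poisson bars) of 8 genes in glomerular and Plvap+ gate cells by library. Pi16, Smad6, Eng, Klf2, Klf4, Sdpr and Ly6c1 lay below sham in each later library of the glomerular gate. There Lpl was above sham on day 2 only.

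Among genes higher than in sham were lipid-handling genes: on day 7, 5 of 10 tested were higher (5.83% over all genes) and 2 lower (4.85%), with a median log2 ratio of 0.60. One of the 5, the apolipoprotein Apoe, stood at 2141 CPM in the gate, 2556 CPM in proximal tubule cells and 8398 CPM over all kept cells, and the part of free RNA in it was not tested. Fabp4, a fatty acid binding protein of capillary endothelium, stood at 395, 647, 2275 and 979 CPM. It was 1.64-fold higher on day 2 (1.28 to 2.10), 5.76-fold on day 7 (4.76 to 7.02) and 2.48-fold in reversed cells (2.02 to 3.06). In Plvap+ cells it was high throughout, at 3276, 2826, 3790.2 and 1610.1 CPM, and 1.16-fold higher on day 7. The day 7 value was the highest of the gate and stayed below the Plvap+ value of the same library. Proximal tubule cells had 5.35 to 56.6 CPM, well under these values. The thinned share of gated cells with a Fabp4 UMI was 25.5%, 39.2%, 62.0% and 48.5%, against 0.4% to 5.6% of proximal tubule cells.

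Gpihbp1, which carries lipoprotein lipase to the capillary lumen, stood at 293, 420.0, 1106 and 609.6 CPM, 3.78-fold higher on day 7 (3.01 to 4.78) and 2.08-fold in reversed cells (1.64 to 2.67). In Plvap+ cells it was 2.58-fold higher on day 7 as well. Fabp4 and Gpihbp1 were both lower in reversed cells than on day 7, 2.32-fold (2.10 to 2.57) and 1.81-fold (1.59 to 2.07), while still above sham. Fabp5, a relative of Fabp4, was at 95.3, 156, 209 and 96.4 CPM, 2.20-fold higher on day 7 (1.45 to 3.43) and 1.01-fold in reversed cells. The cholesterol exporter Abcg1 was 2.56-fold higher on day 7 (1.13 to 6.80). Lpl was thus lower on day 7 where its carrier Gpihbp1 was higher. Gpihbp1 is also on the list of genes known from peritubular capillaries, with Esm1 and Igfbp3. Of that list 3 of 5 tested were higher in the glomerular gate on day 7 (5.83% over all genes) and in reversed cells (6.71%), and 0 were lower; in reversed cells Igfbp3 lay below its level over all cells of the library. Igfbp3 stood at 13.6, 20.6, 209 and 60.1 CPM in the gate, with 57 of the 127 day 7 UMIs in 1 cell.

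Of the basement membrane genes, 4 of 16 tested were higher on day 7 (5.83% over all genes) and 5 of 13 in reversed cells (6.71%), with 0 lower; the medians were 0.62 and 0.79. In both, Fn1, which encodes fibronectin, was counted among them although it lay below its level over all cells of the library. Col18a1 in reversed cells went from 1.45 to 0.53 without cells with other types' RNA, and the others stayed past 2-fold. The collagen IV chains Col4a1 and Col4a2 form the network of most vascular basement membranes. Col4a1 stood at 187, 194, 519 and 628 CPM, 2.77-fold higher on day 7 (2.08 to 3.76) and 3.35-fold in reversed cells (2.52 to 4.54). Col4a2 stood at 133, 202, 313 and 353 CPM, 2.36-fold (1.66 to 3.42) and 2.66-fold higher (1.88 to 3.85). On day 2 Col4a1 was 1.03-fold and Col4a2 1.52-fold above sham, with intervals that include equality, and neither was lower in reversed cells than on day 7. They lie head to head on chromosome 8 with annotated starts 21 bases apart, and share the order of levels here. Plvap+ cells were also above sham in each later library, with Col4a1 at 226, 398, 869 and 712 CPM. Sparcl1, a matricellular protein, stood at 37.5, 53.5, 134 and 268 CPM, 3.56-fold higher on day 7 (1.89 to 7.42) and 7.14-fold in reversed cells (3.88 to 14.6), while Plvap+ cells stood at 211 to 361 CPM without that order.

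Of the list of tip cell and injury genes, 4 of 11 were higher than in sham on day 2 (4.35% over all genes), 4 of 14 on day 7 (5.83%) and 7 of 13 in reversed cells (6.71%), with 0 lower. In each comparison 1 of these was below its level over all cells of the library, Vim on day 2 and day 7 and Gadd45b in reversed cells. Of the called genes, 2 of 4 on day 2, all 4 on day 7 and 6 of 7 in reversed cells stayed past 2-fold without cells with other types' RNA; Igfbp7 went to −0.85 on day 2 and 0.45 in reversed cells, and Mcam to 0.97 on day 2. Those of sprouting capillaries were found in a minority of cells. Apln, the ligand of the receptor Aplnr, had 1, 1, 54 and 34 UMIs, in 1, 1, 19 and 15 cells. The day 7 ratio to sham was 26.1 with a counting interval of 4.5 to 1051. Its receptor stayed at 0 to 14.8 CPM in the gate. Esm1, a proteoglycan of endothelial tip cells, stood at 51.1, 28.8, 204 and 424 CPM, in 3, 2, 36 and 34 cells with 13 of the 15 sham UMIs in 1 of them, 4.00-fold higher on day 7 (2.33 to 7.37) and 8.30-fold in reversed cells (4.93 to 15.1). In Plvap+ cells Esm1 was below sham in each later library, at 304, 465 and 204 CPM against 806 CPM. The gates thus went opposite ways against sham on day 7 and in reversed cells, while on day 2 both were lower. Ednrb, the endothelin B receptor, was 2.18-fold higher on day 7 (1.55 to 3.14) at 139.6, 148, 305 and 286 CPM. Of 18 cell cycle genes, 5 passed the filter; 0 were higher in any later library and Stmn1 was lower in reversed cells, which is too few genes to set against the shares over all genes.

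Some genes had their highest level on day 2. Serpine2, an inhibitor of serine proteases including plasminogen activators, stood at 30.6, 815, 80.8 and 244 CPM, 26.6-fold higher on day 2 (13.7 to 59.0), with UMIs in 35 of 51 cells. After reversal 104 of its 134 UMIs came from 1 cell. Lrg1, a secreted glycoprotein that acts on endothelial growth factor signalling, stood at 20.4, 239, 65.9 and 41.9 CPM and was 11.7-fold higher on day 2 (5.06 to 33.2). Socs3, a cytokine-signalling inhibitor, stood at 44.3, 288, 129 and 149 CPM and was 6.51-fold higher on day 2 (3.57 to 12.8), and the serpin Serpina3g 21.4-fold (6.93 to 107). All 4 were highest on day 2, but not confined to it. Lrg1, Socs3, Serpine2 and Serpina3g were also past 2-fold over sham on day 7 (log2 ratios of 1.32, 1.35, 1.16 and 1.91). In reversed cells Serpine2 (2.64) and Socs3 were past it (1.55, or 0.62 without cells holding other types' RNA). Plvap+ cells were also highest in Lrg1 and Serpine2 on day 2, at 416 and 531 CPM, whereas Serpina3g had 0 CPM there and Socs3, at 113, 189, 195 and 241 CPM, was highest in reversed cells.

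**Figure D3:**
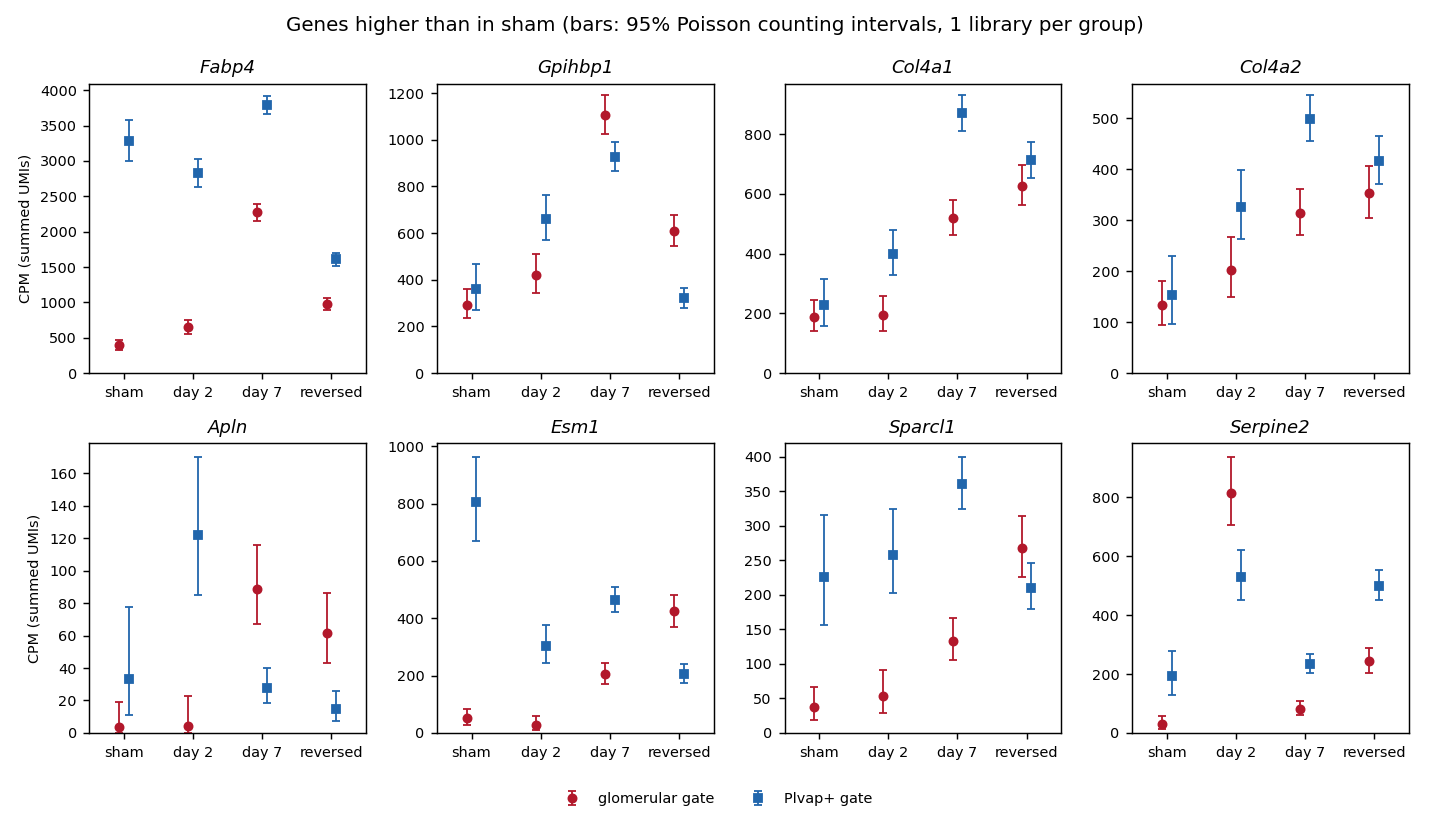
Level (CPM, linear axis, 95% Poisson bars) of 8 genes in glomerular and Plvap+ gate cells by library. In the glomerular gate Fabp4 and Gpihbp1 peak on day 7, and Col4a1, Col4a2, Sparcl1 and Esm1 are highest in reversed cells. Serpine2 is highest there on day 2, at 815 CPM.

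Of the interferon and antigen presentation genes, 2 of 18 were higher than in sham on day 2 (4.35% over all genes). In reversed cells 6 of 23 were higher than in sham and 1 lower (6.71% and 3.79%), and 5 of 23 were lower than on day 7 (1.91%). All 2 genes called on day 2 were below their level over all cells of the library. So were 4 of those called in reversed cells against sham, and all 5 called against day 7. Of 23 tested interferon and antigen presentation genes, 11 stood above sham at day 7 (5.83% over all genes) and 1 below (4.85%), but 7 of the called genes were below their level over all cells of that library. Cd74, the class II invariant chain, is an example: gated cells held 61.3, 177, 2269.6 and 721 CPM, and proximal tubule cells 105, 701, 2978 and 971 CPM. These values in the gate were below those of tubule cells in each library, so no expression by the gated cells is read from them, and the part of free RNA was not tested. Isg15, also 1 of the 7, was above the proximal tubule level, at 40.9, 53.5, 150.0 and 115 CPM against at most 29 CPM in proximal tubule cells, and was 3.67-fold higher on day 7 (2.00 to 7.37). Spp1, a secreted phosphoprotein of injured tubules, reached 8581 CPM in the gate on day 7 with 12458 CPM in proximal tubule cells and 8321 CPM over all kept cells, and 1225 of its 5206 UMIs came from 1 cell. The part of free RNA in its level was not tested. The sum of 11 leukocyte genes was 61.3, 552, 3376 and 750 CPM in the gate, with 3, 2, 1 and 1 of them at 0, and 49.9, 709.5, 2651 and 960.1 CPM in proximal tubule cells.

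RNA of neighbouring cell types moved with the libraries. The sum of 12 podocyte genes was 1233, 2532, 377 and 548 CPM in the gate, with 12, 12, 11 and 12 genes detected, and 49.7%, 29.6%, 4.8% and 4.3% of it from the cell with the most. The sum of 12 mesangial and mural genes was 17.0, 383, 478 and 1012 CPM, with 2, 8, 12 and 12 genes detected and 10, 4, 0 and 0 at 0 UMIs; 32.3% of it on day 2, 72.4% on day 7 and 40.8% in reversed cells came from 1 cell. Proximal tubule genes summed to 11188, 4616, 1956 and 4540 CPM, highest in sham. The sham gate therefore held the most tubule RNA and the reversed gate the most mural RNA.

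A few cells held a large part of the UMIs of some genes. Tagln, a smooth muscle gene, had 0, 0, 13 and 294 UMIs, the last of these in 12 cells with 157 in 1 of them. Against the floor of 3 UMIs in the sham sum it was at least 52.4-fold higher in reversed cells. Tagln is 1 of the 15 genes that define the split, so its level without those cells is fixed by the split and is not given. Among immediate-early genes 4 of 14 were higher than in sham on day 2 (4.35% over all genes), 5 of 15 on day 7 (5.83%) and 12 of 18 in reversed cells (6.71%), with Dusp1 lower on day 2. Of these, 3 of the 5 genes called in either direction on day 2, all 5 on day 7 and 6 of the 12 in reversed cells were below their level over all cells of the library. In reversed cells 5 of the 12 stayed past 2-fold without cells with other types' RNA and 7 did not, with Btg2 at −0.018. Fos, a subunit of the AP-1 factor, went from a log2 ratio of 5.04 to 2.61 in reversed cells by the same step. Mgp, a matrix protein of larger vessels, had 2, 29, 460 and 331 UMIs, with 333 of the day 7 and 178 of the reversed UMIs in 1 cell each, and its log2 ratios to sham of 5.51 and 5.19 became 3.81 and 2.57 without all cells with other types' RNA.

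Without cells with other types' RNA, on the higher side Fabp4 had 2.60 on day 7 and 1.59 in reversed cells, Gpihbp1 2.02 and 1.51, Col4a1 1.42 and 1.43, Esm1 1.72 and 3.22, and Serpine2 3.57 on day 2. Each of these kept its direction and stayed past 2-fold. The part of the other cell types' RNA in the remaining differences was not tested.

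**Figure D4:**
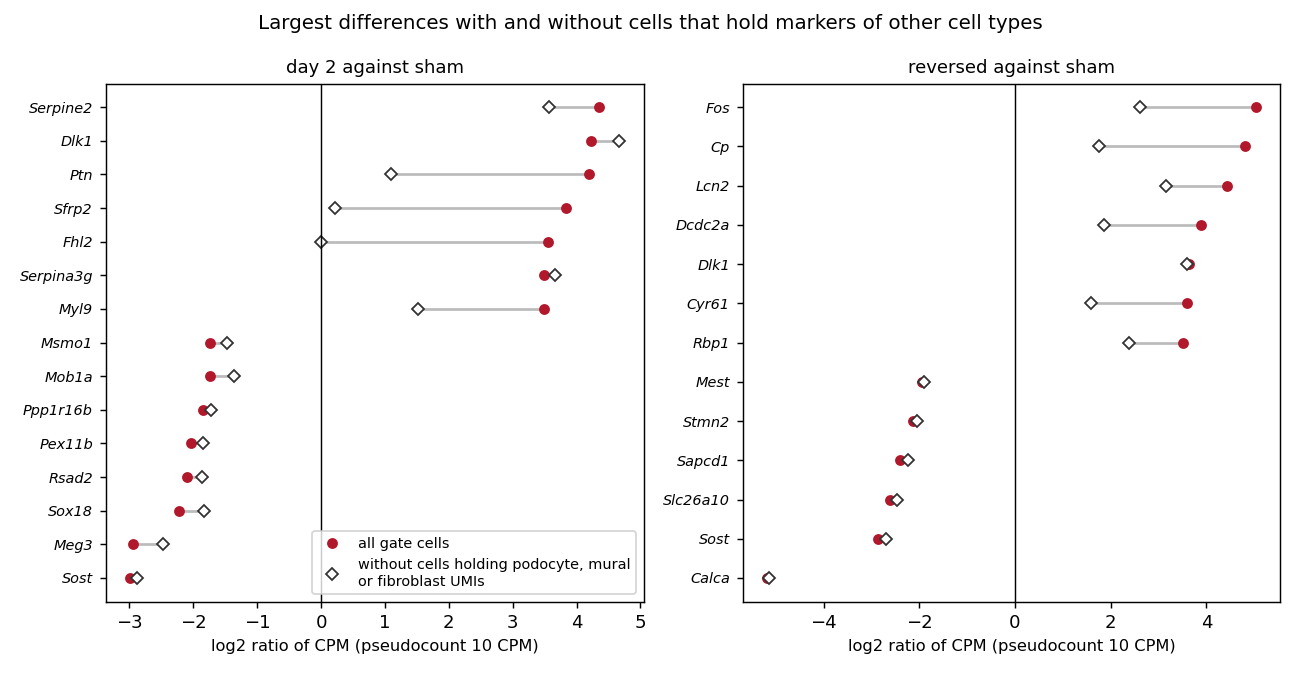
Log2 ratio of CPM (10 CPM added) for named genes on day 2 and in reversed cells, each against sham, with all gated cells and without cells holding podocyte, mural or fibroblast RNA. The genes that define those cells are not drawn; Fos moves from 5.04 to 2.61 in reversed cells, and Serpine2 is at 3.57 on day 2.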

How the data were processed

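For 4 droplet libraries the authors deposited matrices of whole UMI counts over 28692 gene identifiers. The submitters' processing notes name Cell Ranger, STAR and GRCm38 (mm10) with no version, and the labels name the 10x 3′ V2 workflow. A Smart-seq2 sample with all time points mixed was not used here. Whether the files had passed a filter on cells is not given in the sources used here.

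Cells under 200 genes (398, 60, 3 and 45 in sham, day 2, day 7 and reversed) or over 50% mitochondrial UMIs (a further 1607, 472, 54 and 414) were left out. Plvap+ cells had an endothelial sum of at least 3, Plvap at least 1, Ehd3 0 and Ptprc 0. Proximal tubule cells had at least 3 UMIs over Lrp2, Slc34a1, Slc5a12 and Cubn, and no endothelial or Ptprc UMI. The members and gene lists were chosen with earlier results of these data known. Gates were compared with edgeR 4.0.16 (quasi-likelihood test, robust, TMM factors, filterByExpr, Benjamini-Hochberg adjustment) on UMIs summed per gate and library, with the library as a block, because both sums of a library come from the same pooled mice. Libraries were compared by log2 ratios after adding 10 CPM to both values, a scale that shrinks differences of weakly expressed genes, and folds carry exact conditional binomial intervals at 95%. Named genes were those of the lists, the 15 largest changes in each direction between gates among called genes with the same sign in all 4 libraries and at least 50 CPM, and the 8 largest in each direction between libraries. One gene that this rule names is not reported here, and others are given no values in the text. Alternatives were DESeq2 1.42.0, other scalings, filters, gates, thinning, Scrublet (scanpy 1.11.5), libraries left out and, chosen after seeing the data, cells with markers of other types or the top cell of each gene left out. The edgeR step was checked on simulated counts. The work ran in R 4.3.3 and Python 3.11.15, with pandas 2.3.3, scipy 1.17.1, matplotlib 3.10.9, anndata 0.12.19 and numpy 2.4.6.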

Additional observations from a re-analysis of the deposited data

Results flagged for a closer look

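Some list genes lay past 2-fold in opposite directions in the glomerular and Plvap+ gates under the same comparison. The difference between the gates was not tested, because each condition was 1 library. Esm1 had a log2 ratio of 2.83 in reversed glomerular cells against sham, 8.30-fold higher, while Plvap+ cells were 3.95-fold lower (3.09 to 5.04). Against day 7 the Esm1 log2 ratio of reversed cells was 1.02 in the glomerular gate, and Plvap+ cells were 2.28-fold lower (1.90 to 2.75). Fabp4 had 1.29 in reversed cells against sham, with Plvap+ cells 2.03-fold lower (1.83 to 2.26). Lpl had −1.11 on day 7 against sham, with Plvap+ cells 3.81-fold higher (1.59 to 11.9), where proximal tubule cells held 250 CPM. Entpd1, which breaks down extracellular ATP and ADP, had −1.20 on day 7 from 16 and 11 UMIs, with Plvap+ cells 2.87-fold higher (1.28 to 7.97). Aqp1, a water channel that proximal tubule cells also express, had 1.76 in reversed cells against sham, with 65 of 165 UMIs in 1 cell, and Plvap+ cells 4.00-fold lower (3.17 to 5.04).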

How the results depend on the processing

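The count of 258 genes higher in the glomerular gate became 142 with DESeq2, 140 with no library block and 124 with cells thinned to 1000 UMIs, and 156 to 257 without each library in turn. The count of 314 genes higher in the Plvap+ gate became 173, 126 and 152 under those settings, 553 with no filter on low counts, and 193 to 325 without each library in turn. Among libraries left out, the counts were 156 and 197 without day 7, and 172 and 193 without the reversed library. Fewer genes, 1860, could be fitted after thinning. Of the 572 calls, 292 were kept by DESeq2 and 263 without the block. Robo4 turned from lower to 0.075 (log2, adjusted p = 0.94) when thinned. The sham share of endothelial cells became 50.6% after thinning. Of the thinned shares of gated cells with a UMI of a gene, 27 moved and 1 stayed the same when cells were not thinned. With no filter on low values the counts higher and lower were 739 and 647 on day 2, 837 and 484 on day 7, 959 and 322 after reversal (all against sham), and 290 and 218 reversed against day 7. Without cells holding other types' markers, 93 genes were higher on day 2, and without each gene's top cell 61 were higher in reversed cells than on day 7. With each cell weighted equally, 65 single-gene log2 ratios between libraries lay outside their counting interval, 142 lay within it and 0 changed sign. Without cells holding other types' markers 65 lay outside it and a further 10 changed sign or went to 0, 3 of them to 0. The ratios have 10 CPM added and the intervals do not. With no filter on low values, which leaves each ratio unchanged, 6 lay outside as well.

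Some log2 ratios changed sign or went to 0. Without cells holding other types' markers they became 0.00 for Fhl2 and −0.85 for Igfbp7 (day 2), 0.52 for Cdkn1c (day 7), −0.018 for Btg2 (reversed against sham), and, reversed against day 7, −0.46 for Ankrd1, −0.69 for Atf3, −0.92 for Egr1, −0.39 for Fos and 0.00 for Igfbp2 and Tnc. Without each gene's top cell they became −0.42 for Dlk1 on day 2, 0.25 for Cdkn1c and −0.20 for Dlk1 on day 7, and 0.28 for Col1a1, 0.29 for Col1a2 and 0.021 for Col6a3 in reversed cells against day 7. Without Scrublet's doublets the ratio became 0.32 for Cdkn1c on day 7, and with at least 2 Ehd3 UMIs 0.027 for Col6a3. The other causes were not tested. With 51 cells and 242845 UMIs, day 2 limits what could be seen, and each condition was 1 library of 3 pooled mice.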
